A study of Homo sapiens with 24 samples.

Results

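The 9 genes described here encode the kinases that phosphorylate serine/arginine-rich (SR) proteins and other spliceosome components: CLK1, CLK2, CLK3, CLK4, SRPK1, SRPK2, DYRK1A, DYRK1B and PRPF4B. Their members are the splice junction entries that lie on the strand and within the GRCh37 span of each gene, 1627 of 1823643 entries in the series. Of these 1627, 528 are boundary entries, which measure reads running from an exon into the adjacent intron, and 1099 are spliced entries. The cells were HCT-116, a human colorectal carcinoma line. They expressed added wild-type (WT) or Y36C mutant PHF5A, a subunit of the SF3b complex that recognises the branch point, and in both cases still carried their own PHF5A. Cells were treated for 6 h with DMSO or with E7107, a pladienolide derivative that binds SF3b, which gave 4 groups of 6 samples, named here WT DMSO, Y36C DMSO, WT E7107 and Y36C E7107. The labels give no concentration of E7107, and the methods of the study name more than 1 for its sequencing. Nothing states that samples of a group came from separate cultures, so each p-value measures only the spread between these samples. Members of the set were defined by gene name, and the genes were chosen with earlier results of these data known.

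CLK1 to CLK4 are nuclear kinases that phosphorylate SR proteins, the factors that bind exons and help recruit the spliceosome. SRPK1 and SRPK2 phosphorylate the arginine-serine domains of the same proteins in the cytoplasm, which promotes their import into the nucleus. DYRK1A and DYRK1B are related dual-specificity kinases with substrates among splicing and cell cycle proteins, and PRPF4B (PRP4 kinase) phosphorylates proteins of the assembling spliceosome. CLK transcripts are textbook cases of kinases that control their own splicing. An exon 4 that is often skipped is flanked by introns 3 and 4 that are often left in polyadenylated nuclear RNA, and such introns are called detained introns.

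Exons and introns are numbered along the main (MANE Select) transcript of each gene in the GENCODE annotation on GRCh37. CLK1 lies at chr2:201717732-201729414, CLK2 at chr1:155232659-155248282 and CLK4 at chr5:178029665-178057616, all 3 on the minus strand, and CLK3 at chr15:74890841-74937755 on the plus strand. SRPK1 lies at chr6:35800743-35889119, SRPK2 at chr7:104751151-105039755 and DYRK1B at chr19:40315990-40324841 on the minus strand. DYRK1A lies at chr21:38737875-38898660 and PRPF4B at chr6:4021501-4065217 on the plus strand. These transcripts have 113 introns with 226 exon-intron boundaries, and all 113 introns begin with GT and end with AG. Genes on the opposite strand overlap parts of CLK2, CLK3, SRPK1, SRPK2, DYRK1A and PRPF4B. Genes on the same strand overlap parts of CLK1, CLK4, DYRK1A and DYRK1B. The sources used here do not say whether the libraries kept strand, so boundary reads of overlapping genes cannot be told apart.

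The donor site of intron 4 shows why exon 4 of the 4 CLK genes is treated as 1 group below. The sequences run 5' to 3' on the gene's strand over the last 3 exon bases and the first 8 intron bases, and capitals mark the GT that starts the intron.
CLK1 intron 4 donor, chr2:201724840-201724850, minus strand: gatGTatagaa
CLK2 intron 4 donor, chr1:155238491-155238501, minus strand: gatGTacaagc
CLK3 intron 4 donor, chr15:74914555-74914565, plus strand: gatGTacagcc
CLK4 intron 4 donor, chr5:178044337-178044347, minus strand: gatGTatagaa
The CLK1 and CLK4 donors are identical over these 11 bases. Each of the 4 matched 4 of the 9 bases of the donor consensus, and the letters GATGTA across the exon-intron junction, read on the transcribed strand only, occurred in 6 of 113 kinase introns (5.31%). The other 2 were CLK3 intron 7 and PRPF4B intron 7. Among 76669 MANE Select introns on the chromosomes of the kinases, 353 (0.46%) held these letters there. A match of 4 or fewer of 9 bases was found at 6 of 113 kinase donors (5.31%), against 582 (0.759%) of the 76669 introns. The 4 CLK donors, from which these letters were read, are among the 6 in both counts. The limit of 4 also equals their own match, so the kinase shares are a description and no test.

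The acceptor sites of intron 3, on the other side of exon 4, were less alike. They are shown over the last 50 intron bases and the first 3 bases of exon 4, and capitals mark the AG that ends the intron.
CLK1 intron 3 acceptor, chr2:201724936-201724988, minus strand: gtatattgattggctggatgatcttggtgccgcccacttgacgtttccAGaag
CLK2 intron 3 acceptor, chr1:155238584-155238636, minus strand: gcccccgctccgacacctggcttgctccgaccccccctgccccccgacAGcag
CLK3 intron 3 acceptor, chr15:74914411-74914463, plus strand: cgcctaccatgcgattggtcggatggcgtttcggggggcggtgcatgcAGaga
CLK4 intron 3 acceptor, chr5:178044433-178044485, minus strand: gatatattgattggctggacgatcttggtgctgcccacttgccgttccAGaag
CLK1 and CLK4 shared an unbroken run of 17 bases in this window, and the other pairs shared runs of 4 to 6 bases. Of the 20 bases before the AG, 14 were pyrimidines in CLK1, 15 in CLK2, 9 in CLK3 and 15 in CLK4. Exon 4 is 91 bases long in CLK1 and CLK4, 88 in CLK2 and 97 in CLK3, and each length leaves a remainder of 1 when divided by 3, so leaving the exon out shifts the reading frame.

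Each deposited value is a percent spliced in (PSI), the share of reads at a splice site that use 1 junction out of all junctions at that site, boundary reads included. At a boundary the PSI is the level of intron retention (IR), and at a junction that leaps over an exon it is the level of exon skipping (ES). The files hold no read counts, so the depth behind each PSI is unknown. As the only measure of coverage, 338112 to 340662 of 638460 splice sites had reads in WT DMSO samples and 336772 to 339162 in Y36C DMSO samples. With E7107 the numbers were 281734 to 284117 in WT cells and 329014 to 332178 in Y36C cells. Fewer spliced RNAs and more unspliced RNA from a gene cannot be told apart in these percentages. Entries were tested with limma on natural log odds of PSI across the whole table, and called at a Benjamini-Hochberg adjusted p of 0.05 or less. An entry was tested if no sample compared lacked reads at its site and if some group had a nonzero PSI in each of its 6 samples. That filter favours entries that are high in 1 group, and counts over all kinases without it are given beside the main ones.

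In WT cells E7107 raised IR along nearly the whole of the kinase transcripts. Of 148 kinase boundaries tested, 139 rose and 0 fell, where over all genes 70.9% of 107166 boundaries rose and 5.78% fell. By limma at an unadjusted p under 0.05, 140 rose and 0 fell. The median change was 47.6 percentage points for the kinases and 11.2 over all genes. Without the filter 156 of 183 rose and 0 fell, where over all genes 42.9% rose and 3.65% fell.

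CLK1, CLK2 and CLK3 showed the highest retention under E7107. Averaged over the 21 CLK1 boundaries with reads in all 24 samples, retention in WT DMSO had a lowest value of 5.95%, a median of 7.06% and a highest of 9.17%, and in WT E7107 it was 74.4%, 80.7% and 81.6%. For CLK2 (22 boundaries) the lowest, median and highest were 11.4%, 11.8% and 13.1% in WT DMSO and 63.6%, 70.8% and 73.1% in WT E7107. CLK3 (24 boundaries) went from 4.30%, 5.00% and 5.34% to 65.8%, 69.7% and 72.1%. These averages did not overlap between treatments in any of the 3 genes, and all 21, 22 and 24 of the tested boundaries of their main transcripts rose. CLK4 had reads in all 24 samples at only 10 of its 24 boundaries, over which retention was 5.55%, 6.55% and 8.20% in WT DMSO and 36.7%, 38.3% and 50.7% in WT E7107. Of 7 CLK4 boundaries tested, 6 rose, and the acceptor of intron 2 was not called (adjusted p = 0.613).

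The largest single rise in CLK1 was at the acceptor of intron 6. PSI there was 1.92%, 4.33% and 6.99% (lowest, median, highest) in WT DMSO and 93.6%, 95.5% and 97.4% in WT E7107, a change of 5.83 in natural log odds (SE 0.23, limma adjusted p = 1.25e-09). Thus nearly all reads at that acceptor in treated WT cells ran on into the intron. The acceptor of intron 6 was also the boundary with the largest change in CLK3 (medians 2.39% and 88.5%, log odds change 5.58, SE 0.31, adjusted p = 2.15e-08) and in CLK4 (medians 2.38% and 76.4%, 4.85, SE 0.48, adjusted p = 2.69e-06). In CLK2 it was the acceptor of intron 8, with medians of 6.39% and 86.0% (4.10, SE 0.31, adjusted p = 2.76e-07).

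PRPF4B was at a level near that of CLK4, and DYRK1A was lower. In PRPF4B (28 boundaries) retention was 1.33%, 1.66% and 2.14% in WT DMSO and 35.4%, 41.7% and 43.0% in WT E7107, and 28 of 28 boundaries rose. The largest change of PRPF4B was at the acceptor of its last intron, intron 14, with medians of 4.55% and 63.3% (log odds change 3.49, SE 0.19, adjusted p = 1.44e-08). DYRK1A (22 boundaries) went from 1.61%, 1.99% and 2.51% to 22.4%, 28.0% and 29.1%, and 19 of 19 boundaries tested rose. The groups of these 2 genes did not overlap.

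The SRPK genes showed the lowest retention. SRPK2, over 24 of its 30 boundaries, went from 0.478%, 0.827% and 1.22% to 11.3%, 17.3% and 24.7%. Just 1 SRPK2 boundary passed the filter, the acceptor of intron 15, and it rose (medians 0.685% and 40.8%, log odds change 3.46, SE 0.39, adjusted p = 8.25e-06). Without the filter 10 of 24 SRPK2 boundaries rose. SRPK1 (30 boundaries) moved from 2.61%, 2.83% and 3.42% to 7.16%, 7.61% and 9.77%, with no overlap between groups, and 17 of 24 boundaries tested rose. Its median boundary change was 4.78 percentage points, against 79.5 in CLK1, 60.9 in CLK2, 63.4 in CLK3, 50.9 in CLK4, 42.7 in PRPF4B and 24.3 in DYRK1A. DYRK1B could not be tested in WT cells, because reads were found at only 0 to 8 (median 4) of its 20 boundaries in a WT E7107 sample, against 18 to 20 in WT DMSO.

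By gene average in WT E7107 cells the order was thus CLK1, CLK2 and CLK3, then CLK4 and PRPF4B, then DYRK1A, SRPK2 and SRPK1. Sample values of CLK2 and CLK3 overlapped, as did those of CLK4 and PRPF4B and those of DYRK1A and SRPK2. The order within these pairs is therefore not settled. The averages rest on different numbers of boundaries and on those with enough reads in every sample, and they are a description of levels with no test.

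**Figure D1:**
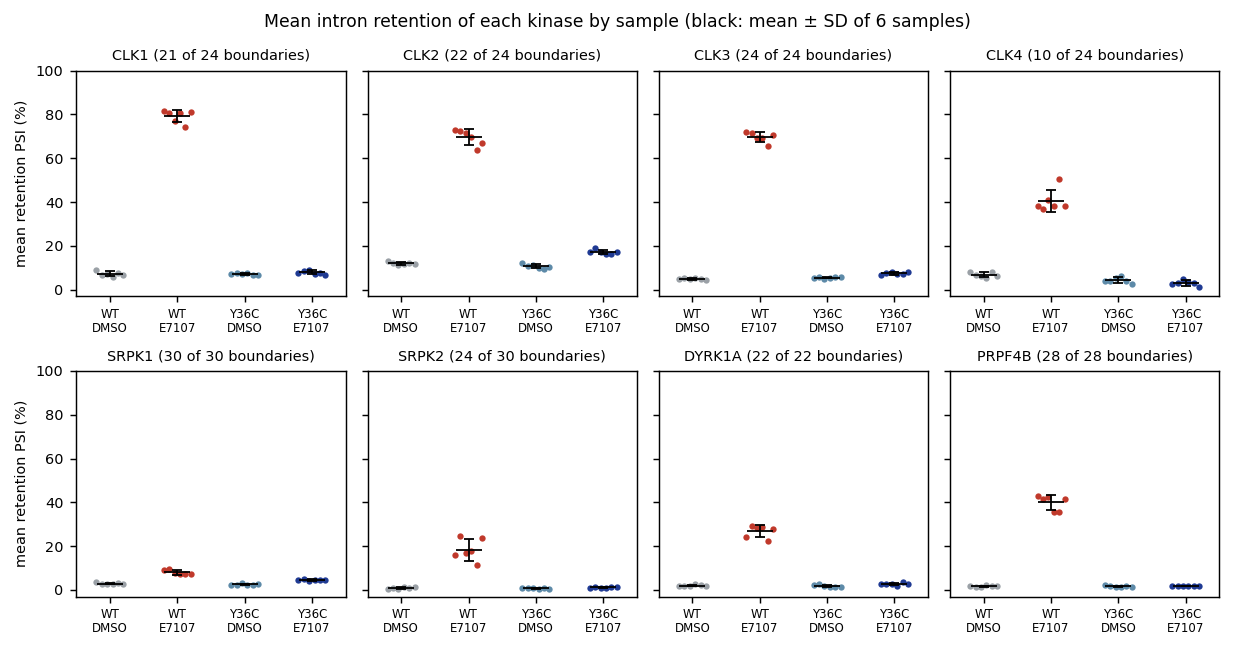
Mean retention PSI (percent) of 8 kinase genes in each sample (points) of the 4 groups, with black lines for the mean and SD of 6 samples, over boundaries with reads in all 24 samples (none in DYRK1B). WT E7107 points lie far above the other groups for CLK1, CLK2 and CLK3 (63.6% to 81.6%) and slightly above them for SRPK1 (7.16% to 9.77%), and Y36C E7107 points lie wholly above Y36C DMSO points in CLK2, CLK3 and SRPK1.

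Under DMSO, a small group of introns was already retained. An intron was counted as detained when both boundaries had a mean PSI of at least 10% in WT DMSO and in Y36C DMSO, and 9 of 113 introns met this: CLK1 introns 3 and 4, CLK2 introns 3 and 4, CLK4 introns 3 and 4, CLK3 intron 12, and DYRK1B introns 1 and 10. The lower of the boundary means was 44.2% for CLK2 intron 4, 37.7% for CLK2 intron 3, 30.0% for CLK1 intron 4 and 22.6% for CLK1 intron 3. Just inside the limit were CLK4 intron 3 (13.1%) and DYRK1B intron 10 (10.1%), and just outside it were CLK2 intron 10 (9.96%) and DYRK1B intron 4 (9.72%). DYRK1B intron 1 entered with reads at its donor in just 2 samples of each DMSO group. In CLK3, introns 3 and 4 around exon 4 were not detained by this measure: the intron 3 acceptor had a median PSI of 21.9% in WT DMSO, but its donor had 7.62%.

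**Figure D2:**
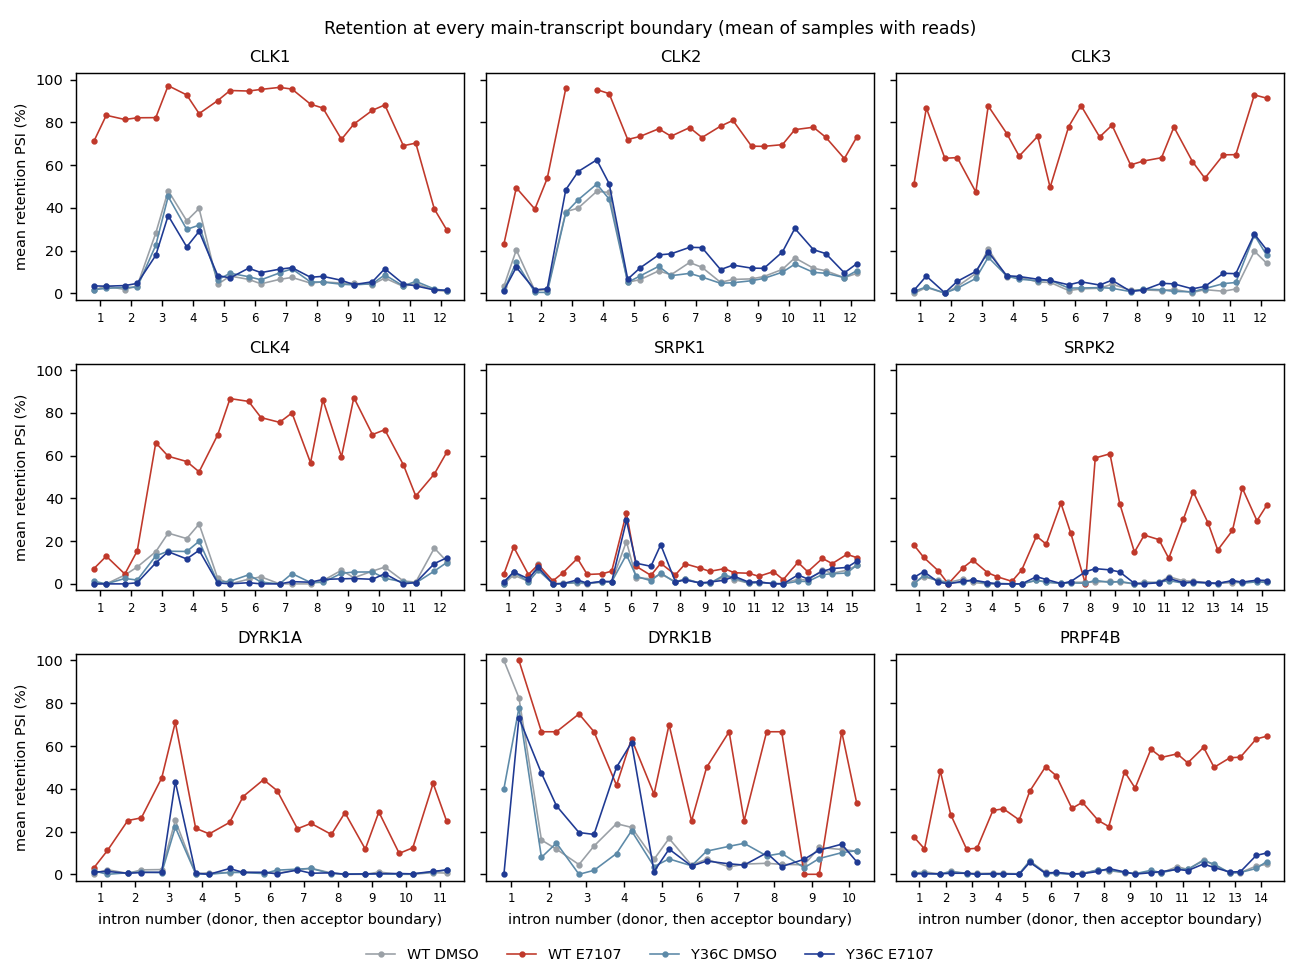
Mean retention PSI (percent, samples with reads) at each exon-intron boundary of the 9 main transcripts, with donor then acceptor boundaries by intron number on the horizontal axis and 1 line per group. Under DMSO the CLK1, CLK2 and CLK4 profiles peak at introns 3 and 4, and in WT E7107 the CLK1, CLK2 and CLK3 profiles are high along most of the transcript, while the DYRK1B line for WT E7107 rests on few samples.

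The detained introns were not alike in sequence. Their median length was 674 bases against 1270 for the other 104, and their median GC content was 51.7% against 41.2%. GC content split them by gene, with 32.6% and 26.2% in CLK1 introns 3 and 4 and 31.9% and 30.4% in those of CLK4, below the median of the others. It was 60.4% and 51.7% in CLK2 introns 3 and 4, 57.4% in CLK3 intron 12, and 58.8% and 57.0% in DYRK1B introns 1 and 10. At the donor they matched a median of 5 of 9 consensus bases against 7, and the median number of pyrimidines among the 20 bases before the AG was 15 in both groups. Introns of 1 gene share its base composition, and 6 of the 9 come from only 3 genes, so these medians are descriptive.

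E7107 raised retention of the detained introns in WT cells too. At the donor of CLK1 intron 3, PSI was 21.6%, 29.4% and 31.5% in WT DMSO and 73.9%, 81.9% and 90.2% in WT E7107 (log odds change 2.45, SE 0.18, limma adjusted p = 2.21e-07). The CLK2 intron 3 donor rose from 32.4%, 38.1% and 42.7% to 93.4%, 96.5% and 97.5% (3.48, SE 0.17, adjusted p = 5.48e-09). The donor of CLK3 intron 12, the last intron of that transcript, rose from 13%, 17.8% and 28.2% to 91.2%, 92.3% and 96.8% (3.88, SE 0.20, adjusted p = 1.06e-08). At these 3 sites the treated and untreated samples did not overlap. The CLK4 intron 3 donor rose from 9.68%, 14.3% and 22.0% to 37.5%, 67.8% and 83.3% (2.44, SE 0.34, adjusted p = 5.59e-05).

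Of the 18 boundaries of detained introns, 8 could be tested in WT cells, and all 8 rose, by a median of 52.5 percentage points. For the other 208 boundaries, 130 of 138 tested rose, by a median of 46.6 points. The detained introns were chosen by DMSO levels that also enter these changes, so the sets are set side by side as a description only. The rest of the detained boundaries lacked reads in some WT E7107 samples. At the exon 4 side of CLK2 intron 3 no WT E7107 sample had reads, and 3 of 6 had them at the exon 4 side of CLK1 intron 3, where PSI was 94.6% to 98.5%.

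In Y36C cells the effect on retention was much smaller and differed between the kinases. Of 122 kinase boundaries tested, 24 rose and 1 fell with E7107, where over all genes 27.6% of 87338 rose and 1.42% fell. The median change over the kinase boundaries was 1.93 percentage points. Without the filter 19 of 241 rose and 0 fell, where over all genes 8.8% rose and 0.368% fell, and at an unadjusted p under 0.05 the filtered test gave 37 up and 5 down. Of the 24, 22 were boundaries of the main transcripts, with 10 in CLK2, 5 in SRPK1, 3 in DYRK1B, 2 in CLK3 and 1 each in DYRK1A and PRPF4B.

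CLK2 had the most responding boundaries in Y36C cells, 10 of the 21 tested, against 27.6% over all genes. Without the filter CLK2 had 8 of 24, against 8.8% over all genes. Its average retention was 9.43%, 10.7% and 12% in Y36C DMSO and 16.1%, 17.1% and 18.8% in Y36C E7107, with no overlap. The largest change was at the acceptor of intron 10, an intron of 167 bases, where PSI went from 11.9%, 14% and 14.4% to 20.4%, 29.4% and 42.9% (log odds change 0.95, SE 0.16, adjusted p = 0.00172). Both boundaries of the detained intron 3 rose: the acceptor from 33.3%, 45.9% and 51.4% to 51.0%, 58.2% and 62.5% (0.53, SE 0.14, adjusted p = 0.0156), and the donor from medians of 35.4% to 49.7% (adjusted p = 0.0254). The others were at introns 6, 7, 8, 9, 10 and 11, with changes of 5.90 to 13.8 percentage points.

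CLK1, by contrast, had no boundary that rose in Y36C cells out of 23 tested (limma, 2 at an unadjusted p under 0.05), and 1 that fell. That was the acceptor of the detained intron 3, where PSI went from 41.7%, 45.5% and 50.4% in Y36C DMSO to 28.9%, 36.7% and 42.4% in Y36C E7107 (log odds change -0.37, SE 0.10, adjusted p = 0.0247), with a slight overlap between groups. This call was not made without the filter on PSI. The other 3 boundaries of CLK1 introns 3 and 4 also had lower medians with E7107, but none passed the threshold (adjusted p = 0.079 to 0.49). The gene average of CLK1 was 6.72%, 7.12% and 7.78% in Y36C DMSO and 6.81%, 7.65% and 9.14% in Y36C E7107, so the groups overlapped.

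CLK4 had 0 of 5 boundaries called in Y36C cells (limma, 0 also at an unadjusted p under 0.05), and its average overlapped between DMSO (2.44%, 4.10% and 6.21%) and E7107 (1.22%, 3.12% and 5.05%). In CLK3 the acceptor of intron 9 rose from a median of 0.476% to 4.76% (adjusted p = 0.0091) and the donor of intron 11 from 4.74% to 9.04% (adjusted p = 0.0483), while both boundaries of the detained intron 12 were not called (medians 27.3% and 27.6% at the donor). Over the 18 boundaries of detained introns, 14 were tested in Y36C cells, of which 2 rose and 1 fell, with a median change of -1.57 percentage points. For the other boundaries 20 of 90 rose, with a median change of 1.94 points. The DMSO levels that chose the detained introns also enter these changes, so the contrast between the sets is a description only.

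In SRPK1 5 of 18 boundaries rose in Y36C cells, a share near the 27.6% over all genes. Without the filter 4 of 29 rose, against 8.8% over all genes. The average retention of SRPK1 was 2.33%, 2.47% and 3.14% under DMSO and 4.16%, 4.47% and 4.93% under E7107, with no overlap. The donor of intron 6, an intron of 12384 bases, had PSI values of 14.7%, 20.6% and 25.3% in WT DMSO and 29.9%, 33.4% and 36.1% in WT E7107 (log odds change 0.69, SE 0.13, adjusted p = 0.000466). In Y36C cells it went from 9.79%, 12.4% and 18.4% to 23.9%, 31.1% and 35.8% (0.96, SE 0.15, adjusted p = 0.00102), and the difference between the genotypes in this change was not called (0.27, SE 0.21, adjusted p = 0.303). The acceptor of intron 7 rose in Y36C cells from 1.90%, 4.56% and 9.05% to 12.2%, 18.8% and 23.0% (1.38, SE 0.23, adjusted p = 0.00118). In WT cells it rose from 2.15%, 4.83% and 6.56% to 7.27%, 8.95% and 13.3% (0.71, SE 0.17, adjusted p = 0.00305). The donor of intron 7 was the only kinase boundary whose rise was called larger in Y36C than in WT cells, with medians of 1.55% and 8.48% in Y36C and 2.28% and 3.53% in WT (difference of changes 1.00, SE 0.32, adjusted p = 0.0113).

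DYRK1B, which could be read only in the other 3 groups, had 3 main-transcript boundaries that passed the filter in Y36C cells, and all 3 rose. Without the filter the rise was called at 3 of 18, against 8.8% over all genes. The median over its boundaries of the mean PSI was 9.76% in Y36C DMSO and 10.6% in Y36C E7107. At the acceptor of intron 4 PSI was 9.09%, 16.0% and 41.7% in Y36C DMSO and 44.4%, 58.0% and 85.7% in Y36C E7107 (log odds change 1.95, SE 0.38, adjusted p = 0.00344). The donors of introns 4 and 2 rose from medians of 12.5% and 9.17% to 43.7% and 46.4% (adjusted p = 0.0131 and 0.00757). The groups did not overlap at any of the 3, although values within a group were widely spread.

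Of 12 PRPF4B boundaries tested in Y36C cells 1 was called, the donor of intron 14, which went from 1.90%, 2.76% and 3.87% to 6.08%, 9.11% and 10.7% (log odds change 1.03, SE 0.11, adjusted p = 8.96e-05). FAM217A lies on the opposite strand there. In DYRK1A the acceptor of intron 3 rose from 15.5%, 18.1% and 38.9% to 31.4%, 45.1% and 51.9% in Y36C cells (1.01, SE 0.22, adjusted p = 0.00639), and from medians of 22.9% to 70.2% in WT cells (1.98, SE 0.19, adjusted p = 2.58e-06). A second acceptor lies 27 bases upstream in that intron, and reads from it also cross the boundary counted here. Its share of the exon 3 donor was 16.3% and 19.9% in WT cells under DMSO and E7107 and 16.1% and 32.7% in Y36C cells (group means), and it rose in Y36C cells (adjusted p = 0.00155) but was not called in WT cells (adjusted p = 0.433). Retention at the upstream acceptor itself had means of 19.6%, 67.6%, 10.3% and 11.4% in the same order. Those values were looked at after the rise at the main acceptor had been seen.

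**Figure D3:**
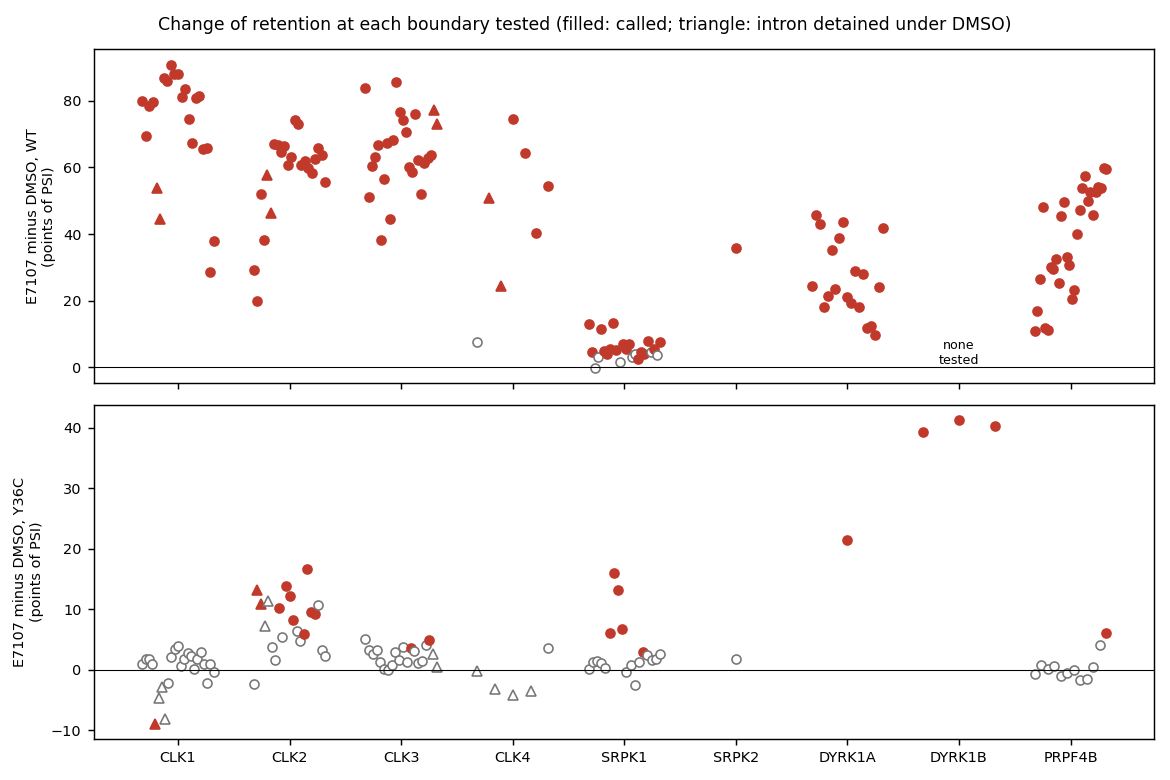
Change in retention PSI with E7107 (percentage points, mean E7107 minus mean DMSO) at each main-transcript boundary tested, by gene on the horizontal axis, in WT cells (upper panel) and Y36C cells (lower panel, other scale), with filled symbols for called boundaries and triangles for detained introns. Called points fill the WT panel, while in Y36C cells CLK2 and SRPK1 have 10 and 5 called points, DYRK1B has 3 near 40 points, and the only called fall is CLK1 intron 3. Over all genes 70.9% of boundaries tested rose in WT cells and 27.6% in Y36C cells.

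The 2 genotypes hardly differed in kinase retention under DMSO. None of 115 boundaries was called higher or lower in Y36C (limma, 6 higher and 11 lower at an unadjusted p under 0.05), where over all genes 0.186% were called higher and 0.144% lower. Without the filter 0 of 240 were called, against 0.032% higher and 0.021% lower. Under E7107, 140 of 149 boundaries were lower in Y36C than in WT cells and 2 were higher, against 62.9% and 11.7% over all genes. Without the filter 154 of 184 were lower and 2 higher, against 39.9% and 7.06%. The 2 higher ones were both boundaries of SRPK1 intron 7, named here after their values were seen. When the change with E7107 was compared between genotypes in 1 model, the rise was smaller in Y36C cells at 131 of 149 boundaries and larger at 1, against 54.9% and 8.94% over all genes. Without the filter these were 145 and 1 of 183, against 34% and 4.69%. All 8 detained boundaries tested were among those with a smaller rise. These comparisons use the same 4 groups and are not independent of each other.

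Spliced entries of the kinases mostly fell in WT cells. Of 239 tested, 165 fell and 34 rose with E7107, against 39.3% and 7.35% of 248707 over all genes. Without the filter 168 of 493 fell and 44 rose, against 18.9% and 4.05%. Of the 34 that rose, 33 were ES junctions. The remaining 1 was a donor 131 bases into DYRK1A intron 11, named after its values were seen. Its mean PSI went from 0.829% to 12.7%, and it passed the filter only through WT E7107, where it is high. Of all 42 ES entries tested, 33 rose and 4 fell, where over MANE Select transcripts of all genes 34.7% of 22263 rose and 13.5% fell. Without the filter 42 of 137 rose and 7 fell, against 8.94% and 3.27%. Each ES junction is counted at both of its ends. In Y36C cells 50 of 310 spliced entries fell and 31 rose, against 14.7% and 7.13% over all genes, and without the filter 38 of 615 fell and 29 rose, against 5.44% and 3.1%. Of 32 ES entries 16 rose and 3 fell, against 53.6% and 1.19% of 29099 over all genes, so the share that rose was near that of all genes. Without the filter 14 of 132 rose and 2 fell, against 10.5% and 0.177%. Under E7107, 184 of 260 spliced entries were higher and 35 lower in Y36C than in WT cells, against 38.7% and 11.9% over all genes, and without the filter 183 and 42 of 510, against 19.1% and 5.69%. The interaction was positive at 163 and negative at 37 of 267, against 32.6% and 9.06%, and without the filter at 160 and 44 of 606, against 13.2% and 3.69%.

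Skipping of CLK exon 4 was compared in all 4 genes, because it is the splicing switch of this family. In CLK1, the share of the exon 3 donor that joined directly to exon 5 was 6.82%, 8.50% and 13.7% in WT DMSO and 9.76%, 13.5% and 26.1% in WT E7107 (log odds change 0.56, SE 0.21, limma adjusted p = 0.0368). In Y36C cells it was 17.6%, 19.0% and 21.1% under DMSO and 9.34%, 11.9% and 13.8% under E7107 (-0.54, SE 0.08, adjusted p = 0.000539). At the donor the direction thus differed between genotypes (difference of changes -1.10, SE 0.23, adjusted p = 0.000355). At the exon 5 acceptor the WT groups overlapped (6.11% to 10.5% under DMSO, 7.02% to 20.3% under E7107), and no rise was called in WT cells. The difference of changes there was -0.858 (limma adjusted p = 0.00458). Under DMSO skipping was higher in Y36C than in WT cells with no overlap of samples, both at the donor (0.83, SE 0.11, adjusted p = 0.0148) and at the exon 5 acceptor, where it was 6.11%, 9.13% and 10.5% in WT and 15.0%, 19.5% and 24.6% in Y36C (0.89, SE 0.12, adjusted p = 0.0172). These were the only 2 of 291 kinase spliced entries called between genotypes under DMSO, both higher, against 0.108% higher and 0.113% lower over all genes (13 higher and 12 lower at an unadjusted p under 0.05). Without the filter 2 of 575 were higher and 0 lower, against 0.0263% and 0.0245%. Neither was called with the replicate number as a block.

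In CLK2 the directions were the other way round. PSI of exon 4 skipping at the exon 5 acceptor was 3.66%, 11.7% and 14.3% in WT DMSO and 0%, 3.46% and 7.02% in WT E7107. At both ends the junction passed the filter in WT cells only through WT DMSO, where it is higher, so no WT test is given. In Y36C cells skipping at the acceptor rose from 9.52%, 15.0% and 17.0% to 18.5%, 24.6% and 35.1% with no overlap (log odds change 0.70, SE 0.17, limma adjusted p = 0.0101). The changes differed between genotypes (1.80, SE 0.40, adjusted p = 0.000721). The exon 3 donor gave the same calls in Y36C cells and between genotypes. CLK2 also had a junction that skipped exons 7 and 8, at medians of 2.51% in Y36C DMSO and 9.13% in Y36C E7107 at its donor, where it too rose in Y36C and fell in WT cells.

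In CLK4, exon 4 skipping at the exon 5 acceptor rose in WT cells from 9.30%, 12.9% and 26.7% to 16.7%, 32.1% and 66.7% (log odds change 1.18, SE 0.35, adjusted p = 0.0115). In Y36C cells it was not called there (medians 17.9% and 15.1%, adjusted p = 0.313), and at the exon 3 donor it fell from 14.8%, 19.4% and 23.5% to 8.70%, 12.6% and 17.5% (-0.48, SE 0.15, adjusted p = 0.0371). In CLK3 it rose in WT cells at the acceptor from 4.81%, 6.82% and 9.82% to 7.69%, 15.2% and 19.7% (0.68, SE 0.20, adjusted p = 0.0139) and was not called at the donor (adjusted p = 0.27). Neither end of the CLK3 junction was called in Y36C cells (adjusted p = 0.379 and 0.584).

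A skipping PSI shares its splice site with retained RNA so it depends on the level of retention. The share of skipping among skipped and included junctions alone, at the exon 5 acceptor, is given as a description with no test. Its median was 14.7% in WT DMSO and 78.6% in WT E7107 for CLK1, 22.9% and 73.3% for CLK2, 7.17% and 42.1% for CLK3, and 17.5% and 83.3% for CLK4. Thus among reads spliced at that acceptor the median share without exon 4 was higher in treated WT cells in all 4 genes, CLK2 included. CLK2 samples in WT E7107 ranged from 0% to 100%. In Y36C cells the medians under DMSO and E7107 were 29.6% and 17.3% for CLK1, 25.5% and 54.0% for CLK2, 7.12% and 4.93% for CLK3, and 21.6% and 17.8% for CLK4. In CLK1 the Y36C samples did not overlap (22.0% to 34.5% under DMSO, 14.5% to 20.2% under E7107), nor in CLK2 (18.2% to 31.6% and 38.5% to 64.3%).

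**Figure D4:**
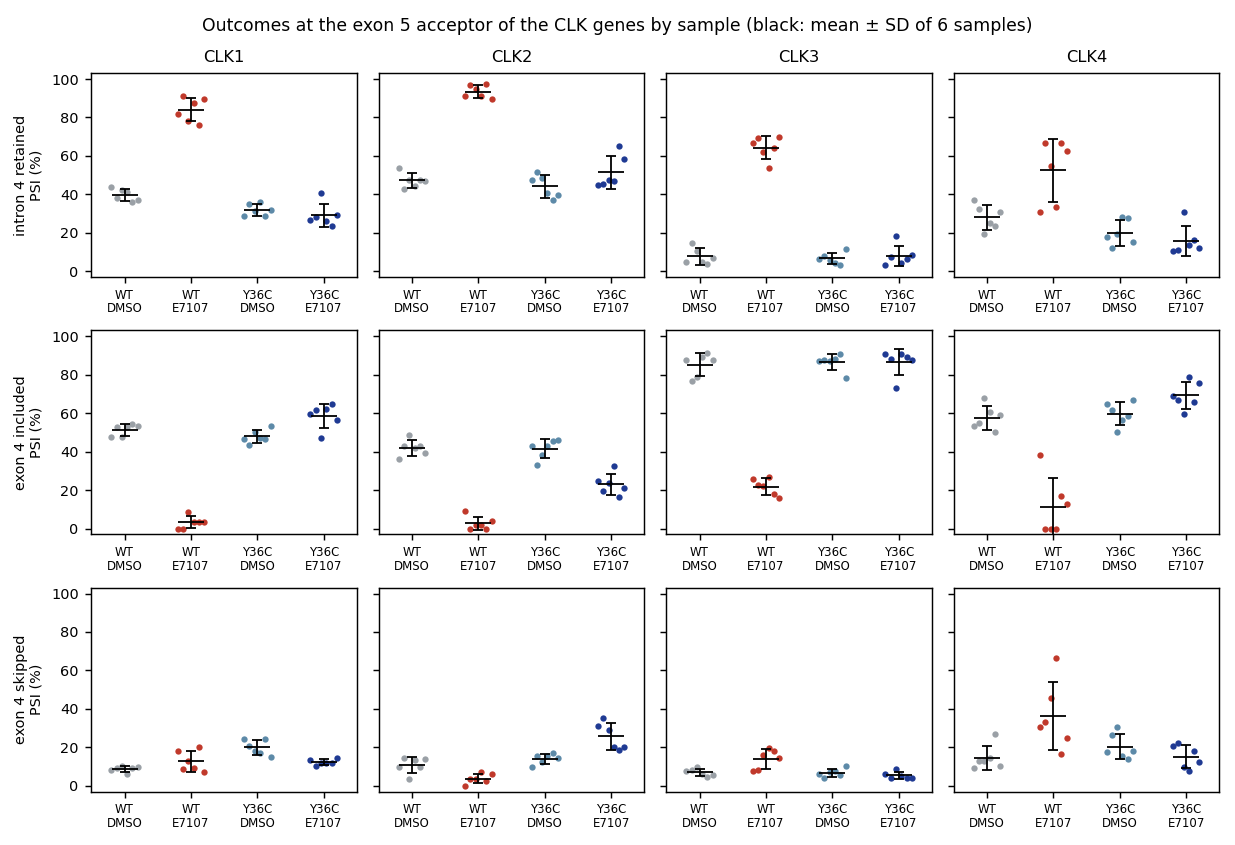
PSI (percent) at the exon 5 acceptor of CLK1 to CLK4, in rows for intron 4 retained, exon 4 included and exon 4 skipped, with 1 point per sample in the 4 groups and black lines for the mean and SD of 6 samples. Retention dominates in WT E7107 cells, and in Y36C E7107 skipping is higher than in Y36C DMSO for CLK2 (medians 15.0% and 24.6%) and lower for CLK1 (19.5% and 12%).

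Read against the reference sequence, each of these outcomes ends the CLK reading frame early. Without exon 4 the first in-frame stop comes after 136 codons in CLK1 (of 484 in the full protein), 139 in CLK2 (of 499), 152 in CLK3 (of 490) and 143 in CLK4 (of 481). With intron 3 kept, it comes after 131, 153, 134 and 129 codons, and with intron 4 alone kept, after 178, 171, 183 and 184. These are computed from the annotated sequence, and no protein or RNA decay was measured here.

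Other CLK transcripts formed in treated WT cells that were near 0 elsewhere. In CLK3 a junction from exon 3 to exon 6 left out exons 4 and 5. It went from 0%, 0% and 1.75% of the exon 3 donor in WT DMSO to 25.0%, 32.4% and 39.6% in WT E7107. The junction passed the filter in WT cells only through WT E7107, where it is high, so these values are given with no test. It was 0.813%, 0.918% and 2.11% in Y36C DMSO and 0%, 1.89% and 5.56% in Y36C E7107, where no change was called (adjusted p = 0.529). Skipping of CLK3 exon 10 went from a median of 0% to 20.4% of the donor in WT cells and reached a median of 0.905% in Y36C E7107. Of 12 CLK3 ES entries tested in WT cells, 11 rose, and without the filter 10 of 20, against 34.7% and 8.94% over all genes. In CLK4 a cassette exon inside intron 2 was used less with E7107 in Y36C cells. Its junction to the exon 2 donor fell from a mean PSI of 9.60% to 0.388%, and its junction to the exon 3 acceptor from 14.4% to 1.26%. Both passed the filter there only through Y36C DMSO, where they are higher, so no test is given. In WT cells, where neither passed the filter, the mean PSI was 5.38% and 0.980% at the donor and 5.54% and 0% at the acceptor, and the difference between genotypes in the change was not called (adjusted p = 0.215 and 0.329). These CLK4 entries overlap a small RNA gene copy and were singled out after their values were seen.

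DYRK1A and PRPF4B gained skipping mainly in WT cells. In DYRK1A, a junction that leaves out exon 2 took 0%, 5.68% and 10% of the exon 1 donor in WT DMSO and 58.6%, 64.9% and 68.4% in WT E7107. It passed the filter in WT cells only through WT E7107, where it is high, so these values are given with no test. In Y36C cells the junction took 2.33%, 7.94% and 11.4% under DMSO and 21.4%, 27.6% and 34.8% under E7107 (log odds change 1.52, SE 0.23, limma adjusted p = 0.000611). That change was smaller than in WT cells (difference of changes -2.05, SE 0.46, adjusted p = 0.000678). All 10 DYRK1A ES entries that passed the filter in WT cells rose, and without it 10 of 20, against 34.7% and 8.94% over all genes. They include a junction over exons 6 to 8, 582 bases that keep the frame, with a median of 0% under DMSO and 23.9% of its donor under E7107, and a median of 0% in both Y36C groups.

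In PRPF4B, skipping of exon 7, a 74-base exon, was 0%, 0% and 1.37% of the exon 8 acceptor in WT DMSO. It was 13.1%, 17.3% and 21.1% in WT E7107. The entry passed the filter in WT cells only through WT E7107, where it is high, so these values are given with no test. The frame is lost, and the first stop comes after 641 of 1007 codons. In Y36C cells the medians were 0.325% and 1.16%, and the entry did not pass the filter there.

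SRPK2 showed a junction that was seen in 1 group only. Joining of exon 1 to exon 3, which leaves out the 55-base exon 2, was listed at 0% of the exon 1 donor in all 18 samples of the other 3 groups and took 11.5%, 18.6% and 27.9% in Y36C E7107. It passed the filter only through the group where it is high, and the other 3 groups have no spread, so the values are given with no test. Exon 2 of SRPK2 follows an intron of only 88 bases, and intron 2 behind it is very long and holds other annotated genes. Of the SRPK2 ES entries, 8 passed the filter in Y36C cells and were called higher, and without it 6 of 22 were, against 53.6% and 10.5% over all genes. The other 6 were junctions into exon 16 over 1, 2 or 4 exons, with medians in Y36C E7107 of 2.80% to 7.48%. In SRPK1, skipping of exon 10 went in Y36C cells from 0%, 0.477% and 1.34% to 0.877%, 3.04% and 3.80% of the acceptor, and was listed at 0% in all 6 WT E7107 samples. It passed the filter in Y36C cells only through Y36C E7107, where it is high, so these values too are given with no test.

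**Figure D5:**
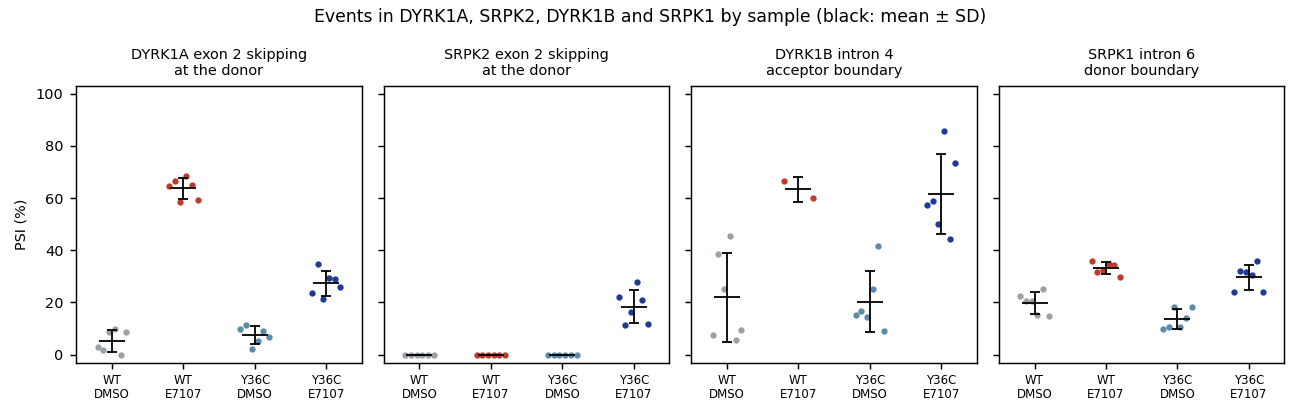
PSI (percent) of DYRK1A exon 2 skipping, SRPK2 exon 2 skipping, retention at the DYRK1B intron 4 acceptor and retention at the SRPK1 intron 6 donor, with 1 point per sample with reads in the 4 groups and black lines for the mean and SD. SRPK2 exon 2 skipping is above 0 only in Y36C E7107 (11.5% to 27.9%), and DYRK1A exon 2 skipping is highest in WT E7107 (58.6% to 68.4%) and intermediate in Y36C E7107 (21.4% to 34.8%).

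Intron features went only loosely with these changes. Across 113 introns, Spearman's rho between GC content and the change in Y36C cells was 0.327, and between length and that change -0.157. In WT cells (111 introns) rho was 0.197 with GC content and -0.389 with length. The WT DMSO level had a rho of 0.361 with the WT change, which is computed from that level, and 0.257 with the Y36C change. Introns are not independent and share genes and libraries, so these are descriptions. Median intron GC content was 56.7% in DYRK1B, 56.5% in CLK3 and 46.3% in CLK2, and between 36.6% and 41.5% in the other 6 genes. Boundaries called higher in Y36C cells were 3 of 3 tested in DYRK1B, 2 of 20 in CLK3 and 10 of 21 in CLK2, against 27.6% over all genes. A link between GC content and these counts was not tested.

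A pair of comparison lists place the 9 genes among their neighbours in the pathway. The first holds 16 genes for other kinases and phosphatases of SR proteins and their import receptor. In WT cells 195 of its 211 boundaries rose and 7 fell, against 70.9% and 5.78% over all genes. The median change was 12.1 percentage points, against 11.2 over all genes. In Y36C cells 24 of 120 rose and 4 fell, against 27.6% and 1.42%. Without the filter 218 of 297 rose and 7 fell in WT cells, against 42.9% and 3.65%. In Y36C cells these were 20 and 3 of 336, against 8.8% and 0.368%. HIPK1 and HIPK3, homeodomain-interacting protein kinases, had 25 of 25 and 23 of 23 boundaries rise in WT cells (medians 41.1 and 49.1 points), and 0 of 3 each in Y36C cells. All 16 tested boundaries of CDK12, a kinase of RNA polymerase II, rose in WT cells, by a median of 24.9 points. TOP1, the topoisomerase that also phosphorylates SR proteins, had 40 of 40 rise in WT cells with a smaller median of 11.4 points, and 1 of 17 in Y36C cells. TNPO3, which carries SR proteins into the nucleus, had 19 of 21 rise in WT and 5 of 11 in Y36C cells. PPM1G, a phosphatase, had 17 of 21 rise and 2 fall in WT cells. In DYRK4 3 of 5 fell and 1 rose, and SRPK3 and DYRK3 had none that could be tested.

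The second list holds 11 genes for the SR proteins and TRA2 factors that the kinases phosphorylate. In WT cells 146 of their 174 boundaries rose and 4 fell, against 70.9% and 5.78% over all genes. The median change was 11.6 percentage points, against 11.2 over all genes. In Y36C cells 25 of 154 rose and 17 fell, against 27.6% and 1.42%. Without the filter 147 of 179 rose and 3 fell in WT cells, against 42.9% and 3.65%. In Y36C cells these were 20 and 14 of 188, against 8.8% and 0.368%. Beside them, the kinases had a median WT change of 47.6 points and 24 of 122 boundaries up and 1 down in Y36C cells. The lists are described by counts and were not tested against each other.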

How the data were processed

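Poly(A) RNA from 24 HCT-116 samples in 4 groups of 6 was sequenced by the authors, and the submitters' processing notes name hg19 and STAR, with no version. The deposited values are percentages: the authors computed the percent spliced in of each junction, boundary reads included, relative to all junctions at the same splice site. Counts and depth were not used here. Groups and replicate numbers were taken from sample titles, and no sample was left out.

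Of 1830076 entries per file, 6433 without a strand or on the mitochondrial chromosome were left out. A splice site whose percentages summed to 0 was treated as missing. Entries were assigned to genes with GENCODE on GRCh37, and sequences were read from GRCh37. Tests were run across all genes in R 4.3.3 with limma 3.58.1 on ln((PSI + 1)/(100 - PSI + 1)), two-sided, with Benjamini-Hochberg adjustment over all entries tested, and the script was tested on simulated data. Entries alone at their splice site were not tested. Contrasts were E7107 against DMSO in each genotype, Y36C against WT in each treatment, and the interaction. The offset compresses changes near 0% and 100%.

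Named values are both boundaries of every detained intron, the boundaries and skipping junctions of CLK exon 4, and for each kinase the tested boundary and ES junction with the largest change in each genotype. Members and gene lists were chosen with earlier results of these data known. Alternatives were offsets of 0.1 and 5, untransformed PSI, no filter, a mean PSI of at least 5%, a change of at least 10 points, leaving out entries in other genes, other limits for detained introns, and the replicate number as a block.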

Additional observations from a re-analysis of the deposited data

Results flagged for a closer look

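The change with E7107 differed between WT and Y36C cells, by the limma interaction, at 34 of the 37 named entries that could be tested, and 28 of these had the larger change in WT cells. Named entries include those with the largest change in each genotype, so these counts are a description. Among the 34, SRPK2 exon 2, SRPK1 exon 10 and PRPF4B exon 7 skipping passed the filter only through the group where they are high. Values here are the Y36C change minus the WT change in percentage points. Opposite calls in the 2 genotypes occurred at 3 entries: CLK1 exon 4 skipping at the donor (-14.1), and CLK2 exon 4 skipping at the acceptor (18.6) and at the donor (17.3). The CLK2 entries passed the filter in WT cells only through WT DMSO, where they are higher, so their WT calls are no independent test. CLK1 exon 4 skipping at the acceptor had -11.5. Positive differences were otherwise found for SRPK1 exon 10 skipping (3.30) and for SRPK2 exon 2 skipping (18.4), which is at 0% with no spread in 3 of the 4 groups.

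At CLK boundaries the difference was -58.7 for the CLK1 intron 3 donor, -47.3 for the CLK1 intron 4 acceptor and -87.5 for the CLK1 intron 6 acceptor. For CLK2 it was -46.9 at the intron 3 donor, -39.0 at the intron 4 acceptor, -66.1 at the intron 8 acceptor and -43.3 at the intron 10 acceptor. CLK3 had -78.9 at the intron 1 acceptor, -34.8 and -64.4 at the intron 3 donor and acceptor, -67.1 and -55.2 at the intron 4 donor and acceptor, -82.8 at the intron 6 acceptor, and -72.7 and -74.7 at the intron 12 donor and acceptor. CLK3 exon 4 skipping had -8.40 and skipping of exons 4 and 5 had -30.8. CLK4 had -54.2 at the intron 3 donor, -28.7 at the intron 4 acceptor, -75.3 at the intron 6 acceptor, and -27.2 and -14.8 for exon 4 skipping at the acceptor and donor. The rest were the SRPK2 intron 15 acceptor (-34.8), the DYRK1A intron 3 acceptor (-24.5), DYRK1A exon 2 skipping (-38.5), the PRPF4B intron 14 donor (-53.3) and acceptor (-56.0), and PRPF4B exon 7 skipping (-15.8).

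In 14 of 176 sets of 6 samples, 1 sample stood apart from the other 5 by Dixon's test at the 95% level, where chance alone gives about 1 in 20 (8.8). In WT DMSO these were the CLK2 intron 3 acceptor (29.5% in replicate 6, others 40.4% to 43.8%) and CLK4 exon 4 skipping in replicate 5 (26.7% at the acceptor and 25.0% at the donor). In WT E7107 it was the CLK3 intron 12 donor (96.8% in replicate 1). In Y36C DMSO they were the CLK2 intron 10 acceptor (11.9%, replicate 3), the CLK3 intron 12 acceptor (12.6%, replicate 4), the CLK4 intron 3 acceptor (29.6%, replicate 5) and the CLK4 intron 6 acceptor (5.00%, replicate 4, others 0%). In Y36C E7107 replicate 3 was high at the acceptors of CLK1 intron 4 (40.7%), CLK3 intron 4 (18.3%) and CLK4 intron 4 (30.6%). Also in Y36C E7107, the CLK3 intron 3 donor was 18.4% in replicate 6, the CLK4 intron 3 acceptor 24.5% in replicate 4 and the DYRK1B intron 1 acceptor 90.9% in replicate 4.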

How the results depend on the processing

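Under the alternatives tried, no named or counted value changed direction. Of 186 named test results, 4 lost their call without the filter on PSI, 2 with an offset of 0.1, 8 with the replicate number as a block and 1 with untransformed PSI. An offset of 5 gave 4 further calls, untransformed PSI 3 and the block 1. Requiring a change of at least 10 points left 14 boundaries higher and 0 lower in Y36C cells, 12 spliced entries higher and 26 lower in Y36C cells, and 14 spliced entries higher in WT cells. It left 0 boundaries higher and 15 spliced entries lower between genotypes under E7107, and 0 boundaries with a larger rise in Y36C cells and 19 spliced entries with a lower change in the interaction. The 1 boundary lower in Y36C cells was not called without the filter (0). With a mean PSI of at least 5%, 20 spliced entries rose in Y36C cells. With an offset of 5, and with untransformed PSI, 2 boundaries rose more in Y36C than in WT cells. Allowing sites with reads in at least 3 samples of each group, an alternative added after seeing the data, gave 1 boundary that fell in WT cells. The causes of these differences were not tested.

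Detained introns numbered 24 at a limit of 5%, 5 at 20%, and 15 when WT DMSO alone was used. Samples with the same replicate number did not deviate together (mean correlation 0.000519 over 36 pairs, 0 over 0.1), so the numbers were not taken as pairs. With the replicate block, 0 spliced entries were called between genotypes under DMSO, where 2 were called without it.

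Without counts, a single PSI has no interval. DYRK1B, 6 of 30 SRPK2 boundaries and the exon 4 sides of CLK1, CLK2 and CLK4 introns 3 and 4 lacked reads in WT E7107 samples, and changes there were not detectable.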
